A study of Homo sapiens with 21 samples.

Results

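Contacts of CTCF-binding sites (CBSs) at the edge of 51 gene domains were set side by side in cells 96 h and 24 h after the start of conversion into macrophages. The members were all deposited reporter-pair files of the boundary CBS viewpoints at these times, 102 of the 371 files of the series. The loci IFNGR2 and TASL were left out, as in the study. BLaER1 was the cell line used, which derives from a human B cell leukaemia and turns into induced macrophages (iMacs) once its exogenous C/EBPα is activated. The 96h and 24h cells had both received 17β-estradiol, IL-3 and CSF-1, and undifferentiated 0h cells, grown without these factors, are given beside them where they help. Each condition was measured in 3 biological replicates, all of 1 cell line, but the authors merged them, so that 1 pooled library stands for each time and no replicate check was possible. All p-values therefore compare libraries, not conditions, and intervals cover counting error only. Several counts can come from 1 read and were treated as independent. P-values may thus be too small, and intervals too narrow even for counting error. The labels give the cells as a leukaemia line and name no marker, and these contact counts hold no expression value by which the cell state could be checked.

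CTCF is a zinc-finger protein that binds a long motif and halts cohesin as this ring complex extrudes loops of chromatin. Sites bound by CTCF therefore mark many domain boundaries, and contacts between such sites depend on how their motifs are oriented. Tri-C ligates fragments that lie together in a nucleus and reads several of them from 1 molecule, so a count here is a pair of reporter fragments seen together with the CBS. The enhancer lies 21.1 kb (DDIT4) to 819.3 kb (IL7R) from the site, and on the same side as the promoter at all loci but CD38. Of the 51 loci, 36 belong to genes of the macrophage programme (iMac loci) and 15 to genes of the B cell programme (B cell loci).

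The sequence at the boundary sites was inspected first. The 12-letter CTCF core motif, searched on both strands in hg38 with at most 1 mismatch and within 1 kb of the site, was found at 33 of 51 sites (64.7%). It was found in 13.8% of 8364 other windows of 2001 bases along the same loci. A full match was held by 8 sites (15.7%), and by 0.837% of the other windows. Of the sites with a match, 19 of 22 at iMac genes and 9 of 11 at B cell genes had a best match that read towards the enhancer. The sites below belong to loci described further on and are written 5′ to 3′ on the strand of the motif, with the motif in capitals.
NFKBIZ, full match towards the enhancer, minus strand, chr3:102224383-102224422: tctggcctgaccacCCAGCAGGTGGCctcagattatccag
MPEG1, full match towards the enhancer, minus strand, chr11:59430097-59430136: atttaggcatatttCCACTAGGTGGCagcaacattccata
KLF6, 1 mismatch, towards the enhancer, minus strand, chr10:4656758-4656797: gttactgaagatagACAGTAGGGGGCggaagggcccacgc
MYB, 1 mismatch, towards the enhancer, minus strand, chr6:135423831-135423870: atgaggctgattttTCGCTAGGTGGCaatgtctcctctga
DNTT, 1 mismatch, towards the enhancer, minus strand, chr10:96340468-96340507: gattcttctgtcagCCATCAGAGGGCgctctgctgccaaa
BCL11A, 1 mismatch, towards the enhancer, minus strand, chr2:60565673-60565712: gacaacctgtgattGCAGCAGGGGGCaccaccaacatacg
SRGN, 1 mismatch, away from the enhancer, minus strand, chr10:69007430-69007469: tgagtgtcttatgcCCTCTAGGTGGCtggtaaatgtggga
The best match is the one with the fewest mismatches, whatever its distance. At NFKBIZ it lies 858 bases from the midpoint taken as the site, outside the reporter-free stretch there, and is 1 of 2 matches. A match describes these letters only and is no evidence of binding.

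The 51 files of a library held 2123253 counts at 96h and 2459732 at 24h with both reporters within 1 Mb of the site, and these served as the total of each locus. Single loci had 12563 to 76248 counts at 96h (median 40011) and 15106 to 87640 at 24h (median 47535). The ratio of the totals was 0.707 to 1.18 (median 0.854), so most loci had a smaller total at 96h. This total is not the sequencing depth, as it leaves out pairs that reach beyond 1 Mb. Counted whole, the 51 files also held fewer counts at 96h, 3170512 against 3507430 at 24h. BCL11A went the other way, with 77616 counts in all at 96h and 74274 at 24h, but 27123 and 34582 within 1 Mb. A share is a percentage of this total, and log2 values are of the odds, 96h over 24h. A difference was called at an adjusted p under 0.05 (exact binomial test, two-sided, Benjamini-Hochberg) and a log2 of at least 0.32 in size, the fold minimum, and "rose" or "fell" below means called. In windows of 12 kb tiled along all loci, 10.1% rose and 15.8% fell at iMac loci, and 6.63% rose and 11.1% fell at B cell loci. The median log2 of a window was −0.09 in the iMac class and −0.07 in the B cell class. These figures are the background for the elements below. They pool both sides of the site and include the windows at the elements themselves. All promoters and enhancers but the CD38 promoter lie on the side that holds the enhancer (enhancer side). There 14.5% of windows rose and 14% fell at iMac loci, and 9.25% rose and 10.1% fell at B cell loci. This split was made after the data had been seen, and pairs of windows were not split by side. A call depends on the number of counts as well as on the size of a change. The windows were not matched to the elements in counts, and many far windows hold few. The percentages called, here and for pairs of windows below, are therefore not strictly comparable with those of the elements.

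Contact of the boundary site with the promoter of its gene, in the company of any other distant fragment (C-P-X), was mostly stronger at 96h. It could be measured at 46 loci, and rose at 17 and fell at 1. Among iMac loci, 12 of 32 rose (37.5%, against 10.1% of all windows and 14.5% on the enhancer side) and none fell. Of their log2 values 28 of 32 were above 0, and the median was 0.30. The median share was 1.05% at 96h and 0.795% at 24h. The 95% interval of the difference lay below 0 at 1 iMac locus, GAS7. Among B cell loci, 5 of 14 rose (35.7%, against 6.63% of all windows and 9.25% on the enhancer side) and 1 fell. Of their log2 values 12 of 14 were above 0, and the median was 0.25. Here the median share was 1.46% at 96h and 1.2% at 24h. The B cell loci, whose genes belong to the programme that the cells leave, thus had about the same share of rises as the iMac loci. Whether the 2 classes differ was not tested. C-P-X was not measured at CITED2, whose promoter is 1067 kb from the site, nor at KLF4, MXD1, CD14 and BCL11A, whose promoters are too close to it.

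CCR1 encodes a chemokine receptor of monocytes and macrophages. Its site (chr3:46378408, in an intron of CCR5AS) lies 288.6 kb from the enhancer (chr3:46089782, in an intron of a gene without a symbol), with the CCR1 promoter (chr3:46208313) between them. The site contacted the promoter in 2216 counts at 96h, against 1558 at 24h. The share was 2.97% (2.85 to 3.10) at 96h and 1.78% (1.69 to 1.87) at 24h, beside 1.33% at 0h, and the log2 was 0.76 (adjusted p = 3.93e-55, exact binomial test). Its intervals do not overlap, and the increase after 24h was larger than that before it. Here and below, the step after 24h is also the longer one, so sizes of steps are not rates.

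Serglycin, the product of SRGN, is the proteoglycan core of secretory granules in blood cells. C-P-X at SRGN had 1898 counts and a share of 5.11% (4.89 to 5.34) at 96h, against 1639 counts and 3.40% (3.24 to 3.56) at 24h. With 3.38% at 0h, the share was level over the first 24 h and higher only at 96h (log2 0.61). CEBPA, the gene of the factor that drives the conversion, also changed mostly after 24 h, with shares of 0.932% at 0h, 1.09% at 24h and 1.69% at 96h (911 counts at 96h, 748 at 24h). IRF8, a transcription factor of monocytes, dendritic cells and B cells, had 0.858%, 0.954% and 1.38% at the same times, and its log2 of 96h over 24h was 0.54. The boundary site of NFKBIZ, which encodes the NF-κB cofactor IκBζ, lies at chr3:102225261 in an intron of ZPLD1, and the enhancer is 287.8 kb away at chr3:101937442, between genes. Its share was already higher at 24h than at 0h (0.934% at 0h, 1.52% at 24h and 2.08% at 96h) and the log2 of 96h over 24h was 0.46.

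Other iMac promoters with a rise were IL10RA, the interleukin-10 receptor chain (265 counts at 96h, 202 at 24h, log2 0.65), CD93, a transmembrane glycoprotein of phagocytes (340 at 96h, 239 at 24h, 0.63) and DDIT4, a stress-induced inhibitor of mTORC1 (255 at 96h, 230 at 24h, 0.58). The chemokine gene CCL2 (log2 0.56) and the AP-1 gene FOSL2 (0.42) rose too. By group, C-P-X rose at 5 of 10 measured transcription regulators, at 6 of 12 loci of surface and secreted proteins and at 1 of 10 loci of signalling and other proteins. These groups were set with earlier results known and were not compared by a test. Some loci with many counts had no call. MPEG1, the pore-forming perforin-2 gene of macrophages, had 1083 counts at 96h and 1222 at 24h, and its log2 of 0.02 had an interval of −0.10 to 0.14. KDM7A, a histone demethylase gene, had a log2 of 0.08 (−0.08 to 0.24). TRIB1, a pseudokinase gene (1046 counts at 96h and 843 at 24h, log2 0.31), LYN, a Src-family kinase gene (940 and 894, 0.30) and LMO2, a haematopoietic cofactor gene (1141 and 1242, 0.26) had intervals above 0 but stayed below the fold minimum.

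Among B cell loci, EBF1, a transcription factor gene that commits progenitors to the B lineage, had the highest log2 of the loci named here. Its site contacted the promoter, 934 kb away, in 245 counts at 96h, against 172 at 24h, with a share of 0.508% (0.447 to 0.576) at 96h, against 0.292% (0.250 to 0.339) at 24h. At 0h the share was 0.169%, and the log2 was 0.80 (adjusted p = 6.48e-07, exact binomial test). Rises at EBF1 were not confined to the promoter, as 22 of 82 windows on its enhancer side rose and 9 fell. DNTT, which encodes the polymerase that adds untemplated bases to antigen receptor joints, had a share of 1.5% at 96h (395 counts), against 0.919% at 24h (325 counts), and 0.615% at 0h. IL7R, the interleukin-7 receptor gene, had 365 counts at 96h and 251 at 24h (log2 0.65). On its enhancer side 20 of 82 windows rose and 2 fell. IRAG2 (log2 0.49) and the immunoglobulin-lambda-like gene IGLL5 (0.44) also rose. PAX5, the gene of the factor that maintains B cell identity, was the locus that fell, with 511 counts and 1.12% at 96h, against 824 counts and 1.40% at 24h. Its share had been 0.883% at 0h, so 24h was the highest of the 3 times, and the call (log2 −0.33, −0.49 to −0.17) was lost under 5 of the alternative settings. At RAG2, a subunit of the V(D)J recombinase, C-P-X had 904 counts at 96h and 943 at 24h, and its log2 of 0.15 (0.02 to 0.28) was not called. BCL2, the gene of an inhibitor of apoptosis, had 2178 counts and 3.44% at 96h, against 2303 counts and 3.02% at 24h, with a log2 of 0.19 (0.11 to 0.28), and CD38 had 741 counts and 1.98% at 96h, against 896 counts and 1.97% at 24h. Neither was called. MYB, a transcription factor gene of progenitors, had shares of 1.56% at 96h, 1.28% at 24h and 0.837% at 0h, and its log2 of 0.29 was below the fold minimum.

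**Figure D1:**
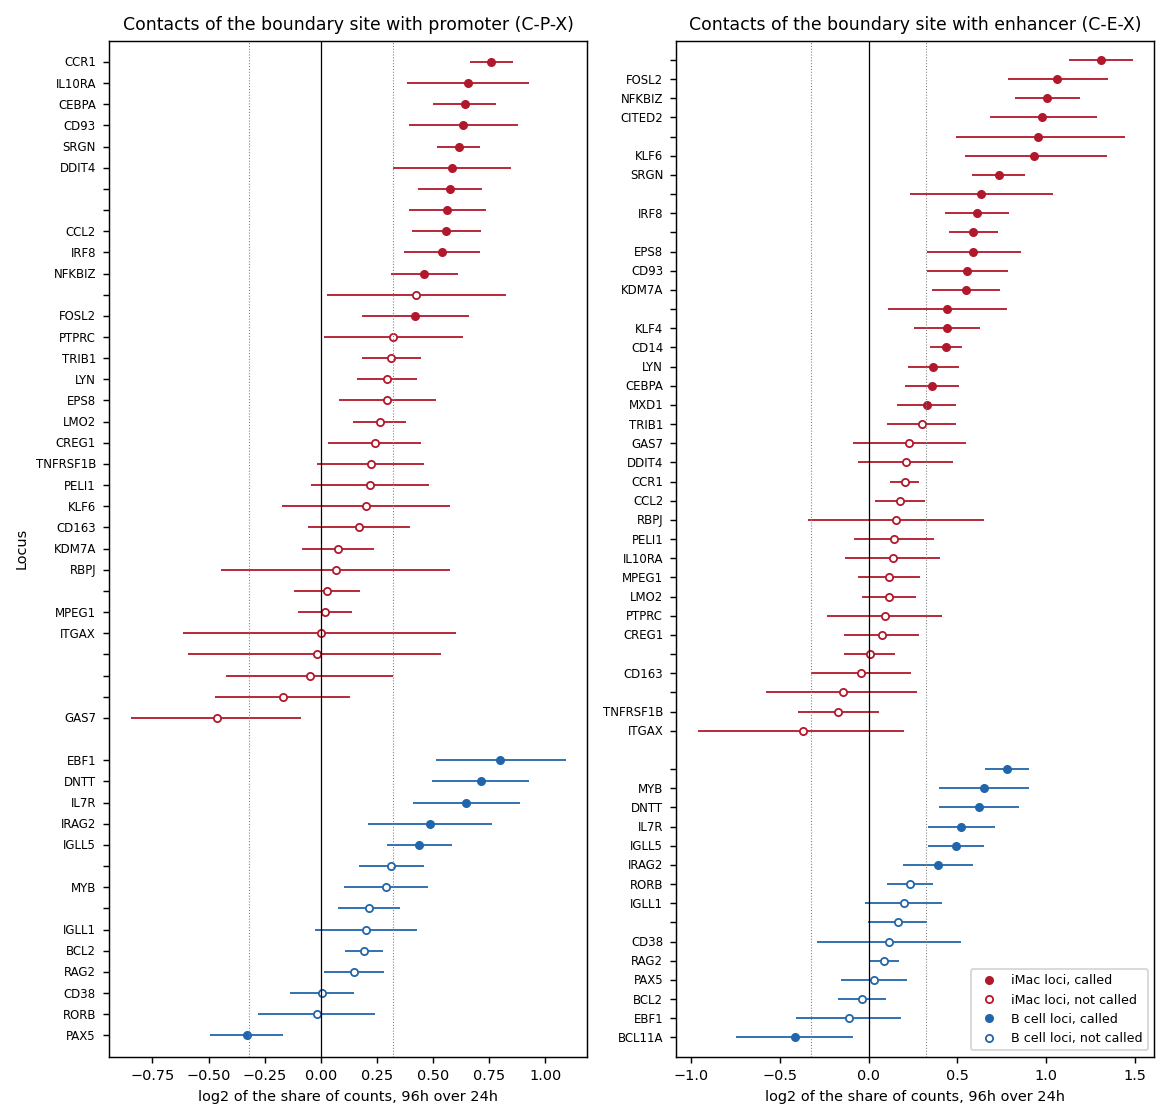
Change in contact of each boundary site with the promoter (left) and the enhancer (right) of its locus, as log2 of the odds of the share, 96h over 24h, with 95% exact intervals. Filled points were called, dotted lines mark the fold minimum (log2 of 0.32), loci without a label are not named, and most points lie to the right of 0.

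Contact with the enhancer, again with any other distant fragment (C-E-X), was measured at all 51 loci and rose at 25, with 1 that fell. Among iMac loci, 19 of 36 rose (52.8%) and none fell, against the 10.1% of all windows that rose and 15.8% that fell. On the enhancer side alone 14.5% of windows rose and 14% fell. The median log2 was 0.34, with 32 of 36 values above 0, and the median share was 0.957% at 96h and 0.779% at 24h. Of the B cell loci, 6 of 15 rose (40.0%, against 6.63% of all windows and 9.25% on the enhancer side). Their median log2 was 0.20, with 12 of 15 values above 0 and a median share of 1.13% at 96h, against 0.863% at 24h.

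By group, 11 of the 13 myeloid transcription regulators rose, with a median log2 of 0.61, and 4 of 13 loci of surface and secreted proteins and 4 of 10 loci of signalling and other proteins rose, with medians of 0.14 and 0.27. The groups were again not compared by a test. At FOSL2 the share was 0.807% at 96h (281 counts), against 0.387% at 24h (167 counts), a log2 of 1.06. NFKBIZ had 738 counts at 96h and 357 at 24h, with shares of 1.72% (1.60 to 1.85) at 96h, 0.864% (0.777 to 0.958) at 24h and 0.580% at 0h (log2 1.01, adjusted p = 1.86e-26, exact binomial test). CITED2, a coactivator gene with an enhancer 602 kb from its site, had 303 counts at 96h and 133 at 24h. KLF6, a zinc-finger factor gene, had 173 counts at 96h and 78 at 24h (log2 0.93). At these 4 loci the 96h share was about 2-fold that at 24h. IRF8 (0.61), KDM7A (0.55), KLF4 (0.44), CEBPA (0.36) and MXD1 (0.33) rose by less. Outside this group, CD14, the gene of a co-receptor for bacterial lipopolysaccharide, had 2036 counts and 5.31% (5.08 to 5.53) at 96h, against 1931 counts and 3.98% (3.80 to 4.15) at 24h, and 3.43% at 0h. The CD14 enhancer is only 23.7 kb from its site. The whole enhancer side between 10 and 50 kb there took 21.2% of distant reporters at 96h, against 16.1% at 24h. Whether the enhancer gained more than this stretch was not tested. CD93 (0.55), EPS8, a gene of an actin-capping adaptor (0.59), and LYN (0.37) rose as well.

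Promoter and enhancer contact did not always go together. At CCR1, whose promoter contact rose most among the iMac loci, the enhancer contact had 2419 counts and 3.25% at 96h, against 2479 counts and 2.83% at 24h, and its log2 of 0.20 (0.12 to 0.29) was not called. At KDM7A the order was the other way, with an enhancer log2 of 0.55 and a promoter log2 of 0.08. At EBF1 the promoter contact rose, while the enhancer contact had 170 counts at 96h and 224 at 24h, and a log2 of −0.11 (−0.41 to 0.18). SRGN and NFKBIZ rose for both elements, SRGN with an enhancer share of 2.24% at 96h, against 1.36% at 24h and 1.74% at 0h. These differences between elements of a locus were not themselves tested.

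Among B cell loci the enhancer contact of MYB rose to 321 counts and 0.984% at 96h, against 218 counts and 0.628% at 24h, with 0.400% at 0h. DNTT (log2 0.62), IL7R (0.52), IGLL5 (0.49) and IRAG2 (0.39) rose as well. BCL11A, a zinc-finger gene needed for B cell development, was the locus that fell, with 122 counts and 0.450% at 96h, against 207 counts and 0.599% at 24h. Its adjusted p was 0.0487 (exact binomial test) and 6 of the alternative settings lost the call. The enhancer contact of RAG2 had 5.05% at 96h (2216 counts), 4.77% at 24h (2416 counts) and 4.94% at 0h, and its log2 of 0.09 had an interval of 0.00 to 0.17, which lies below the fold minimum. PAX5, which fell for its promoter, had an enhancer log2 of 0.03 (−0.15 to 0.22).

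**Figure D2:**
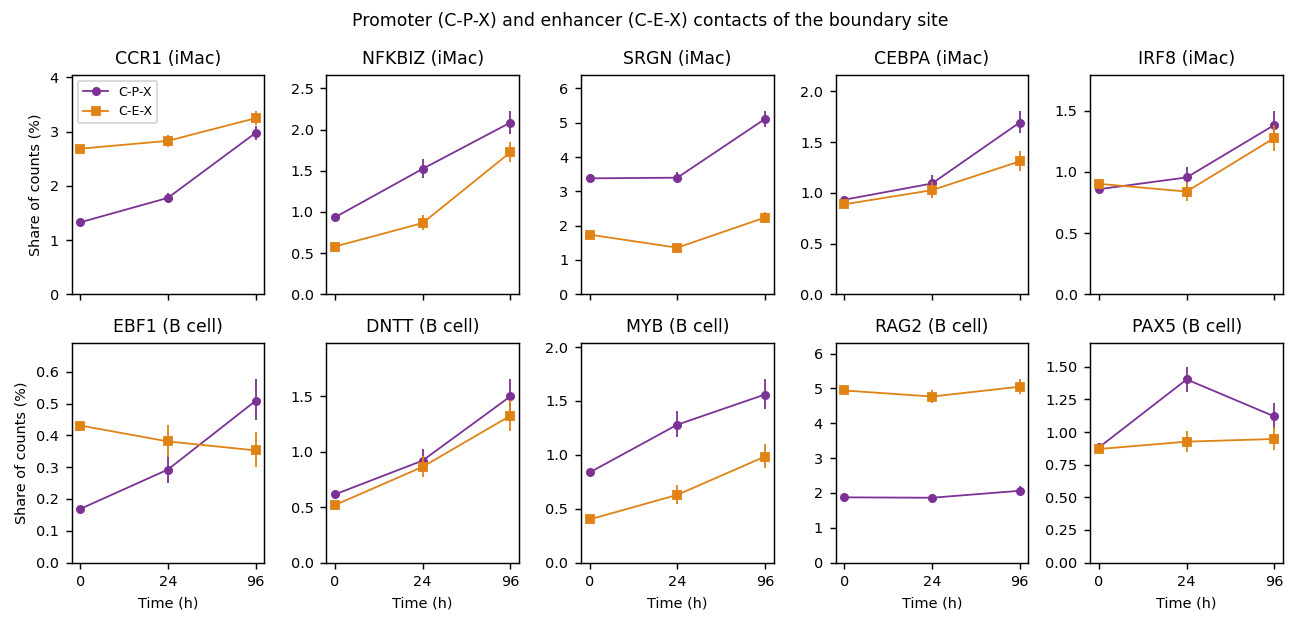
Share of counts (%, linear axis from 0) of the promoter contact (C-P-X, circles) and the enhancer contact (C-E-X, squares) at 0, 24 and 96 h for 5 iMac loci (top) and 5 B cell loci (bottom); bars at 24 and 96 h are 95% exact intervals. SRGN and CEBPA changed most after 24 h, NFKBIZ and DNTT moved through both steps, RAG2 was level, and PAX5 had its highest promoter share at 24 h. The times are evenly spaced on the axis, although the step after 24 h is longer.

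Enhancer and promoter were seen together with the boundary site (C-E-P) at 26 loci with at least 20 counts over both libraries. This three-way contact rose at 5 and fell at none, in a background of 4.89% of all window pairs that rose and 1.6% that fell at iMac loci and 2.26% and 1.28% at B cell loci. The count depends on the settings, with 2 rises in 8 kb windows, 14 in 24 kb windows, 2 with each fragment pair counted once and 1 with counts divided by 3. Among iMac loci, 4 of 18 rose (22.2%), the median log2 was 0.98, and the interval lay above 0 at 11. Among B cell loci, 1 of 8 rose (12.5%), and the median was 0.21 in a range of −1.31 to 1.04. The median log2 over all window pairs was 0.18 in the iMac class and 0.05 in the B cell class.

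CCR1 gave the firmest case. Its site, enhancer and promoter were seen together in 208 counts at 96h and 105 at 24h, a share of 0.279% (0.243 to 0.320) at 96h, against 0.120% (0.0980 to 0.145) at 24h, and 0.0575% at 0h. The log2 was 1.22 (adjusted p = 1.67e-09, exact binomial test). At CREG1, which encodes a secreted glycoprotein, there were 17 counts at 96h and 4 at 24h (log2 2.22, 0.73 to 4.37), so that the size of the rise is poorly known. KDM7A had 26 counts at 96h and 13 at 24h, TRIB1 had 23 at 96h and 9 at 24h, and IRF8 31 at 96h and 16 at 24h, with log2 values of 1.33, 1.31 and 1.28, but none was called. SRGN had 103 counts at 96h and 96 at 24h (log2 0.48). Of the B cell loci, RAG2 had 134 counts at 96h and 144 at 24h (log2 0.10, −0.25 to 0.45), and PAX5 had 5 counts at 96h, against 17 at 24h and 19 at 0h, with a log2 of −1.31 that was not called (adjusted p = 0.319, exact binomial test). The 25 other loci were not measured, because they had fewer than 20 counts or, at the 5 loci named above, because the promoter lay too close to the site or too far from it.

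The side of the boundary site on which distant reporters fell was examined next. In this count both reporters of a pair enter, so the values are not independent and the intervals are too narrow. At iMac loci a median of 72.0% of distant reporters lay on the side of the enhancer at 96h, against 69.1% at 24h, and 67.3% at 0h. The B cell loci had a median of 69.3% at 96h and 66.7% at 24h, with 64.3% at 0h. Over the whole chromosome the median log2 of the B cell loci was −0.015 in place of 0.13, and 6 loci of all rose in place of 13. In the iMac class the enhancer-side share rose at 10 of 36 loci (27.8%) and fell at 1 (2.78%). In the B cell class 3 of 15 loci rose (20%) and none fell (0.0%). The interval lay above 0 at 34 of the 51 loci and below 0 at 8. Pairs with both reporters on the enhancer side had a median of 57.8% at 96h and 53.6% at 24h at iMac loci. Pairs on opposite sides of the site had 28.3% at 96h and 30.4% at 24h, and pairs with both on the far side 14.2% at 96h and 15.1% at 24h.

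KLF4, a zinc-finger factor gene of monocytes, had the largest shift. Of its distant reporters 83.4% (83.0 to 83.8) lay on the enhancer side at 96h, against 73.2% (72.7 to 73.6) at 24h, and 69.9% at 0h. Pairs with both reporters on the far side made up 6.51% at 96h and 12.5% at 24h. NFKBIZ had 79.2% at 96h, against 69.6% at 24h and 60.6% at 0h, MPEG1 had 77.6% at 96h, against 71.1% at 24h, and SRGN had 81.9% at 96h, against 76.8% at 24h. MPEG1 is thus a locus without a call for promoter or enhancer contact whose site nonetheless shifted towards the enhancer side. KLF6 (78.7% at 96h, 73.1% at 24h) and TRIB1 (79.1% at 96h, 75% at 24h) rose too. Of the B cell loci, DNTT rose to 65.6% at 96h, against 59.2% at 24h, and MYB to 79.8% at 96h, against 75.5% at 24h. ITGAX, the integrin gene of CD11c, went the other way, with 44.5% (43.1 to 45.8) at 96h and 52.2% (51 to 53.4) at 24h. CCR1 had 73.7% at 96h and 76.8% at 24h, and BCL11A 59.6% at 96h and 64.4% at 24h, both below the fold minimum. PAX5 had 73.0% at both times. At CCR1 the promoter contact therefore rose while the enhancer side as a whole received no larger part of the contacts.

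**Figure D3:**
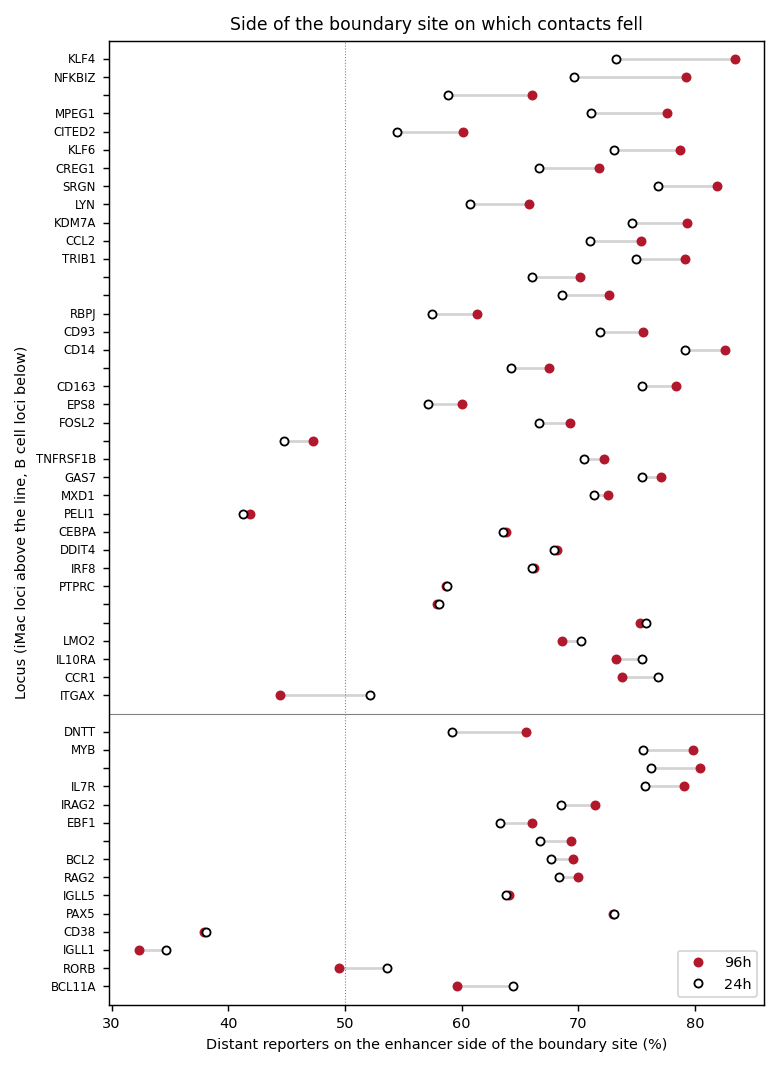
Percentage of distant reporters on the enhancer side of each boundary site at 96h (filled) and 24h (open), iMac loci above the line and B cell loci below it, ordered by the change; loci without a label are not named. KLF4 and NFKBIZ lie at the top with 83.4% and 79.2% at 96h, and ITGAX at the foot of the iMac loci with 44.5%.

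The shift was then described along the distance from the site. At iMac loci the enhancer side between 50 and 200 kb took a median of 22.4% of distant reporters at 96h, against 18.3% at 24h, and was higher at 26 of 36 loci, with a median change per locus of 2.05 percentage points. Beyond 200 kb on the enhancer side 16 of 36 loci were higher and 20 lower. The far side between 200 and 1000 kb took 11.4% at 96h and 15% at 24h, and was lower at 30 of 36, with a median change of −1.82 points. In the B cell class the enhancer side between 50 and 200 kb took 18.4% at 96h and 18.3% at 24h, and was higher at 9 of 15. The far side between 200 and 1000 kb took 10.8% at 96h, against 12.2% at 24h, and was lower at 11 of 15. No test was made of these bands. At KLF4 the far side beyond 200 kb was 5.2% at 96h, against 9.48% at 24h.

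The scan of 12 kb windows was then split by side. On the far side of iMac loci 4.47% of 2060 windows rose and 18.2% fell (median log2 −0.17), and on the enhancer side 14.5% of 2646 rose and 14% fell (median −0.02). The 137 enhancer-side windows at the promoter or enhancer of the locus stood apart, with 53 that rose and 1 that fell (median 0.28). Windows with the promoter of another protein-coding gene on the same side had 25 of 250 that rose and 40 that fell. In the B cell class 18 of 57 windows at the promoter or enhancer rose and 3 fell, against 9.25% that rose and 10.1% that fell over the whole enhancer side. This split of the scan was chosen after the data had been seen. Windows at the promoter or enhancer lie at the elements already counted as C-P-X and C-E-X. They in part recount the same contacts and are no separate support.

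At KLF4 38 of 54 far-side windows fell and none rose, and 25 of 82 enhancer-side windows rose. NFKBIZ had 26 of 65 far-side windows that fell and 22 of 57 enhancer-side windows that rose. CCR1 differed, with 7 rises and 26 falls among 82 enhancer-side windows and 11 rises and 4 falls among 55 on the far side. At RAG2 1 of 160 windows rose and 27 fell. Of the called windows with at least 100 counts at the loci named here, the largest rise was at CITED2, at chr6:140909679-140921678 on the far side, 474 kb from the site, with 353 counts at 96h, against 103 at 24h (log2 1.57). The largest fall was at MPEG1, at chr11:59910044-59922043, 486 kb away on the far side, with 14 counts at 96h, against 100 at 24h (log2 −2.60). CEBPA had a window 402 kb away on its enhancer side with 57 counts at 96h, against 226 at 24h (log2 −1.63), while its promoter and enhancer contacts rose. KLF6 had a window 510 kb away on its enhancer side, at chr10:4140772-4152771, with 121 counts at 96h and 40 at 24h (log2 1.37). CITED2, unlike the loci above, rose at 41 of 82 windows on the enhancer side and fell at none there, with 6 rises and 6 falls among 82 on the far side. Among B cell loci, BCL2 had a window 942 kb away on the enhancer side with 131 counts at 96h, against 61 at 24h (log2 1.37), and RORB, a nuclear receptor gene, one 762 kb away on the far side with 93 counts at 96h, against 35 at 24h (log2 1.46). Further falls were at IRF8, 714 kb away on the enhancer side (23 counts at 96h, 99 at 24h), at PELI1, a ubiquitin ligase gene, 666 kb away on the enhancer side (24 and 90), and at KLF4, 438 kb away on the far side (21 and 81). None of the windows given by position or distance holds a protein-coding promoter.

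**Figure D4:**
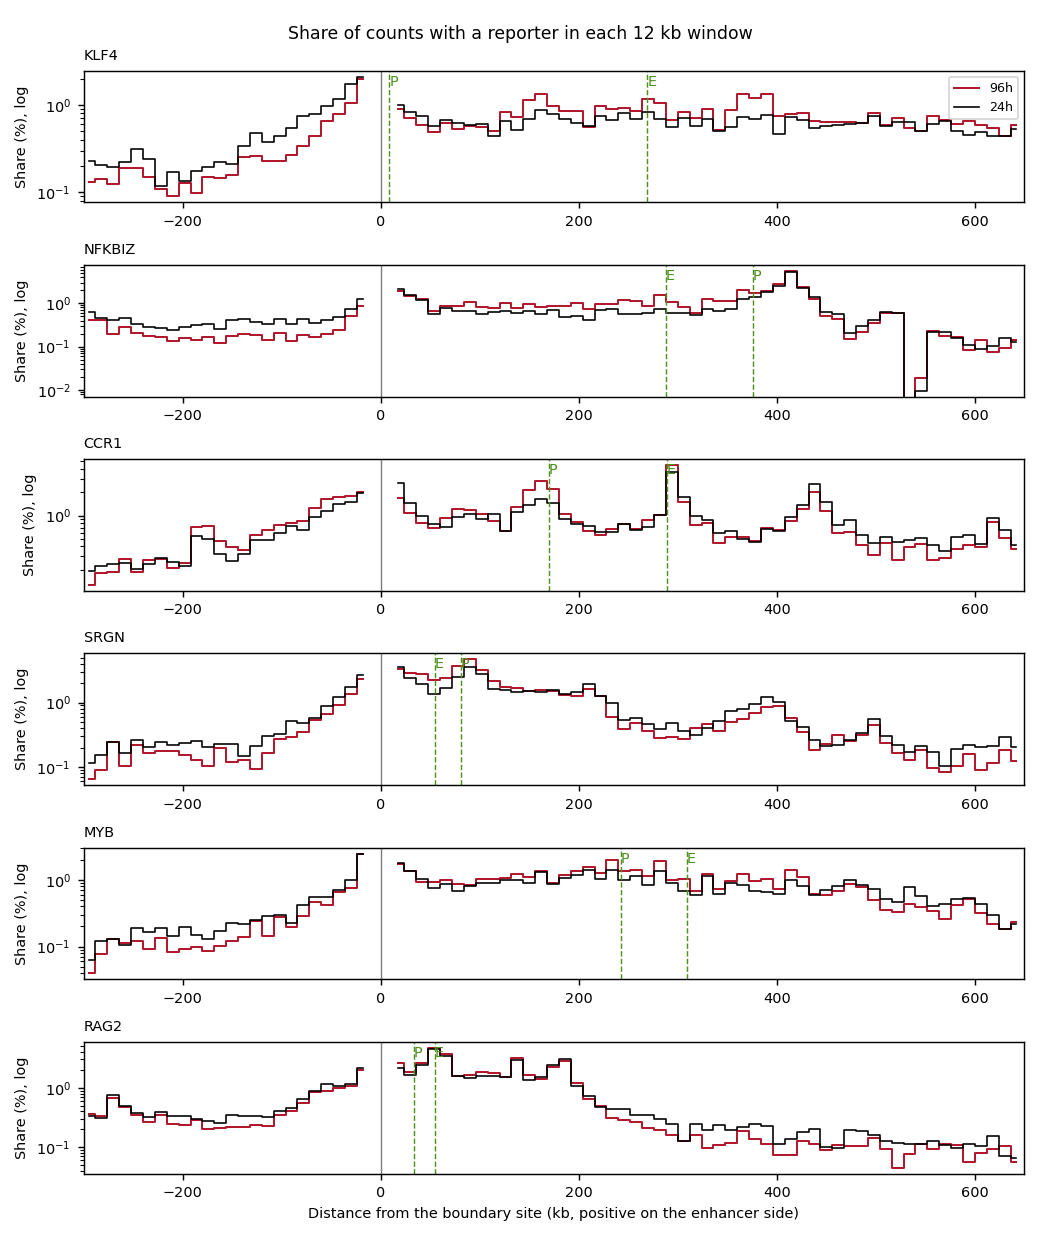
Share of counts (%, log axis) with a reporter in each 12 kb window around 6 boundary sites at 96h and 24h, against the distance from the site in kb, positive on the enhancer side; dashed lines mark the promoter (P) and the enhancer (E), and a window without counts drops below the axis. The 96h line lies below the 24h line on the far side of KLF4 and NFKBIZ and above it at the promoter of CCR1.

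Contacts that left the 2 Mb around the site were outside all totals above. The share of a file's counts with a reporter more than 1 Mb away was higher at 96h at 15 of 15 B cell loci, by a median of 5.09 percentage points (0.983 to 11.6), and at 24 of 36 iMac loci, by a median of 1.41. At BCL11A it was 65.1% at 96h, against 53.4% at 24h and 53.5% at 0h, and at RAG2 46.7% at 96h, against 38.8% at 24h and 32.9% at 0h. It was 41.9% at 96h and 32.8% at 24h at IRAG2, and 36.1% at 96h and 28.3% at 24h at DNTT. With the whole file as the total, the medians of C-P-X were 0.29 for the iMac class and 0.20 for the B cell class, and those of C-E-X 0.30 and 0.16.

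The contact of boundary site and enhancer was also captured from its other end, in the enhancer viewpoint libraries of the same times (E-C-X). Over 51 loci the 2 log2 values correlated with Pearson's r = 0.71 and Spearman's rho = 0.71, given as a description, since the loci share both pairs of libraries. At iMac loci 19 of 36 rose in C-E-X and 19 in E-C-X, with 17 in both captures, 2 only in C-E-X and 2 only in E-C-X. The share of all windows that rose in the enhancer libraries is not given here, so these counts and overlaps have no background. NFKBIZ had 910 counts in E-C-X at 96h and 477 at 24h (log2 0.77), and SRGN 829 at 96h and 645 at 24h (log2 0.86). At B cell loci 4 rose in both and 1, BCL11A, fell in both, with 150 counts in E-C-X at 96h, against 311 at 24h (log2 −0.91). Rises in C-E-X alone were found at 2 B cell loci, MYB and DNTT, and falls in E-C-X alone at 2, CD38 and PAX5. At MYB E-C-X had 278 counts at 96h and 353 at 24h (log2 −0.18, −0.42 to 0.05), and at DNTT its log2 was 0.20. CD38, which encodes an ectoenzyme of lymphocytes, had an E-C-X that fell to 54 counts at 96h, against 110 at 24h, but a C-E-X of 99 counts at 96h and 111 at 24h that was not called. PAX5 fell in E-C-X (155 counts at 96h, 215 at 24h) and was not called in C-E-X.

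**Figure D5:**
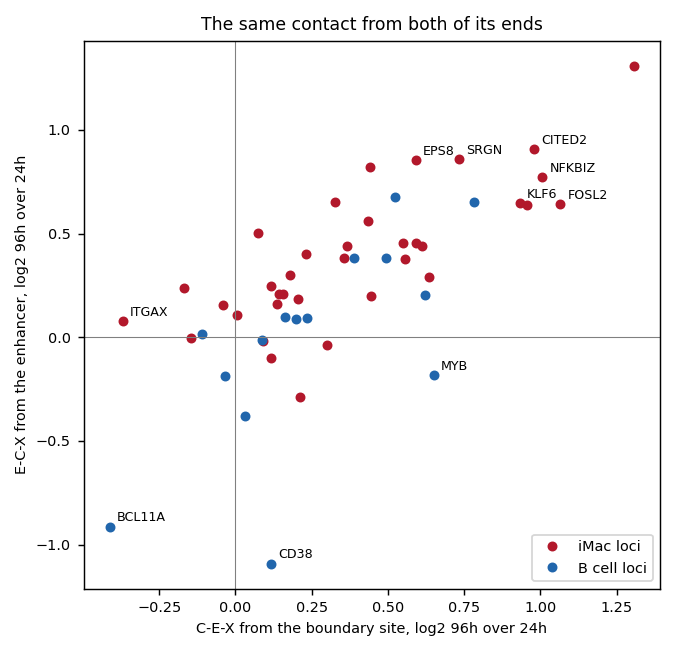
Log2 change, 96h over 24h, of the contact between enhancer and boundary site captured from the boundary site (horizontal axis) and from the enhancer (vertical axis), 1 point per locus; unlabelled points include loci that are not named. CITED2, NFKBIZ and SRGN are high on both axes, BCL11A is low on both, and MYB and CD38 lie off the trend.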

How the data were processed

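The labels list 6 samples for the boundary CBS viewpoints at 96h and 24h, 3 biological replicates each. The deposited values are raw counts of reporter-fragment pairs, hg38. The authors digested chromatin with NlaIII, ran CapCruncher in capture mode, merged replicates and counted every pair of reporters in reads with at least 2 cis reporters, so counts of 1 read are not independent. Of 22483438 listed fragment entries, 1 did not end at NlaIII sites. Sites and enhancers were placed at the midpoint of the reporter-free gap with the highest flanking counts (at least 1 kb), and promoters at the canonical start in GENCODE 44.

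Distant counts had both reporters over 10 kb from the site and from each other. Element windows were 12 kb wide and needed 20 counts over both libraries, scan windows 50 and window pairs 20. Counts were compared by exact conditional binomial tests, adjusted over all windows of all loci, over all pairs, or over 51 loci for the side. A pseudocount of 0.5 entered the log2 values, and shares have 95% Clopper-Pearson intervals. Python 3.11.15, NumPy 2.4.6, pandas 2.3.3, SciPy 1.17.1 and pysam 0.24.0 were used. The test was checked on simulated independent counts. That check does not cover several pairs from 1 read or differences between replicates. Alternatives changed windows, totals, distance, duplicate pairs, depth, promoter start and fold minimum.

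Members, groups and lists were chosen with earlier results of these data known. Named were the loci the study's text names, the called loci of largest change for each contact, the 2 loci per group with most promoter counts and the windows of largest change. CCL2, CD38, DDIT4, EPS8, GAS7, IGLL5, IRAG2 and further loci given by log2 alone were added after their values were seen. Values of some single loci that the rule selects are not reported here, though they enter all counts.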

Additional observations from a re-analysis of the deposited data

How the results depend on the processing

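No paired analysis was possible because each file pools its replicates, and for the same reason no replicate could be left out. Of 144 summary values over 12 alternative settings, 120 were taken as unchanged. For a count this meant within 1.5 times the main value, and for a class median within the interval of the main median over its loci. The side of the fold minimum on which a median lay was not part of this rule. None of 1467 single-locus values reversed a call. C-P-X rose at 8 loci with a 1.5-fold minimum, and the 1 fall (PAX5) gave 0 with 8 kb windows, 24 kb windows, a distance over 20 kb, counts divided by 3 or 1.5-fold. C-E-X rose at 13 loci with counts divided by 3 and at 14 with 1.5-fold, and the 1 fall (BCL11A) gave 0 with 8 kb windows, distant counts as total, a distance over 20 kb, each fragment pair once, counts divided by 3 or 1.5-fold. C-E-P rose at 2 loci with 8 kb windows, 14 with 24 kb windows, 2 with each fragment pair once and 1 with counts divided by 3. The enhancer side rose at 34 loci and fell at 8 with no fold minimum, rose at 2 and fell at 0 with 1.5-fold, and rose at 6 over the whole chromosome, where the median log2 of B cell loci was −0.015 in place of 0.13. The larger windows hold more counts and the divided counts fewer; the cause of the other shifts was not tested.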
